A study of Mus musculus with 24 samples.

Results

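In 12 control tumors, the 4 whose well codes (B1, C1, E2 and B3) are not labelled in the study's heatmaps were compared with the 8 whose codes are (A1, D1, E1, F1, F2, G2, H2 and A3), and C1 was also described on its own against the other 3 absent samples. The 12 samples are the untreated and trastuzumab samples of a series of 24. Each is a library from CD45+ cells, the pan-leukocyte fraction taken with magnetic beads, of the EMT6-hHER2 tumor of 1 mouse. EMT6-hHER2 is a murine breast cancer line that expresses human HER2, isolated as a clone by single-cell sorting, and was implanted in the mammary gland of female wild-type Balb/c mice, 10 to 12 weeks old by label and 8 to 10 weeks old at implantation per the methods. Trastuzumab, an antibody against human HER2, was given once at 20 mg/kg when tumors averaged 80 mm3, the untreated mice received no agent, and cells were harvested at day 10. Of the absent samples, B1 and C1 were untreated (2 of 6) and E2 and B3 had received trastuzumab (2 of 6). The column headings also carry a number for each sample, and what it numbers is not stated. These numbers run in separate ranges for the untreated and the trastuzumab samples, so that range and treatment cannot be told apart. The split was compared within treatment. The study's methods state that similarity of expression between samples was used to find outliers. The split may thus rest on these same values, and its p-values are then no independent evidence.

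A tumor's leukocyte fraction is a mixture whose expression profile follows its cell composition. T cells carry the CD3 and CD247 signalling chains, B cells carry CD20, CD79 and immunoglobulin, and naive lymphocytes that circulate through lymph nodes express homing receptors such as CCR7. Macrophages and neutrophils carry myeloid receptors, while collagens and keratins belong to fibroblasts, tumor cells and other cells without CD45. In such bulk samples, fewer cells of a type and less RNA per cell cannot be told apart.

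All values are the authors' library-size-normalized expression on a log2 scale, over 16996 genes, between 1.14 and 19.7 in the 12 samples. The depth of each library is unknown, no 2 samples held identical values, and the median gene SD was 0.130 over the 4 untreated shown samples and 0.220 over all 6 untreated samples, against 0.141 and 0.182 in the trastuzumab group. Differences below are log2 differences with their standard errors from limma with treatment as a term, Benjamini-Hochberg adjusted over all genes. Ptprc, which encodes CD45 itself, was 15.23 in B1, 15.24 in C1, 15.08 in E2 and 14.91 in B3, against 14.24 to 14.83 (median 14.39) in the 8 shown samples. All 4 absent samples lay above all shown samples for it, by 0.68 ± 0.12 (SE, adjusted p = 0.00149). RNA of cells without CD45 was also present in every library, with Krt8, a keratin of simple epithelium, at 13.06 to 13.47 in the shown samples and 12.24 to 13.01 in the absent ones.

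B1, E2 and B3 stood at one end of the main axis of variation, and C1 did not. Over the 1000 most variable genes, the first principal component held 74.5% of the variance, with B1 at 42.5, E2 at 36.7 and B3 at 23.8, while the 8 shown samples ran from -26.5 (A1) to 2.41 (E1). C1 lay among the shown samples on that axis, at -1.88, and at the far end of the second component (8.15% of the variance), at -14.6. The nearest sample to the untreated B1 was E2, of the trastuzumab group, and E2 and B3, both of that group, were nearest to each other, whereas the nearest sample to C1 was the shown sample H2. The mean distance to the shown samples of the same treatment was 56.7 for B1, 52.7 for E2, 41.0 for B3 and 29.3 for C1, against 15.5 to 25.5 for the shown samples. The split between absent and shown took 51.4% of the squared distance between samples, and 67.5% when C1 was left out.

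**Figure D1:**
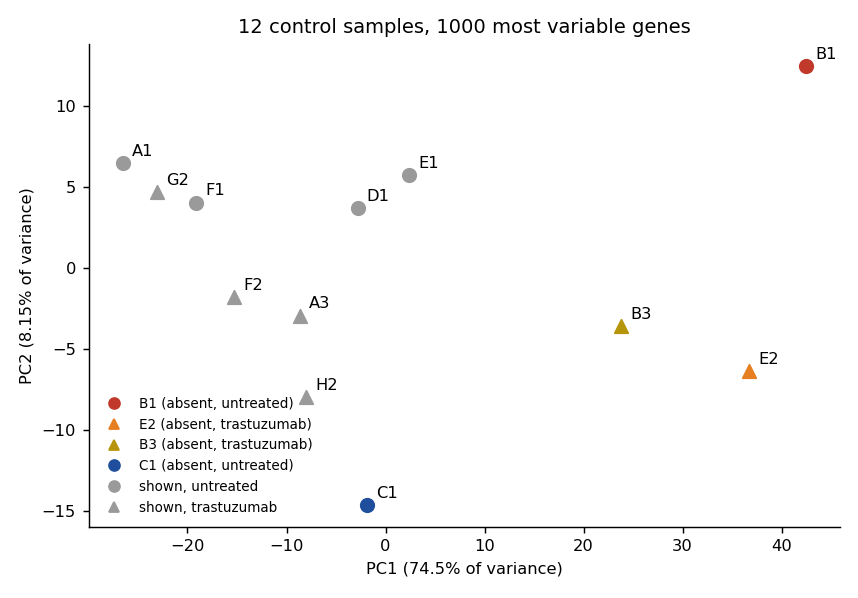
Positions of the 12 control samples on the first (x axis) and second (y axis) principal components of the 1000 most variable genes; circles are untreated, triangles trastuzumab, grey shown and coloured absent samples. B1, E2 and B3 lie between 23.8 and 42.5 on the first axis, and C1 lies at -14.6 on the second.

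Between the 4 absent and the 8 shown samples, genes of T cells and of naive lymphocytes were higher in the absent samples, and genes of the extracellular matrix were lower. At an adjusted p below 0.01 and a fold above 2, 383 genes were higher (2.25% of genes tested) and 45 lower (0.265%). At an adjusted p below 0.05, the threshold used for single genes below, 3049 were higher (17.9%) and 2410 lower (14.2%). The 4 absent samples lay above all 8 shown samples for 1157 genes (6.81%) and below them for 1286 (7.57%). At the stricter threshold 723 genes were higher and 15 lower without C1, 165 and 111 without B1, 89 and 20 without E2, and 252 and 79 without B3. At an adjusted p below 0.05 the share of all genes that were higher was 22.6% without C1, 16.3% without B1, 10.8% without E2 and 14.0% without B3.

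All 20 genes of the T cell receptor complex and its coreceptors were higher in the absent samples at adjusted p below 0.05, with a median difference of 1.79 against 0.02 over all genes. Cd247 (chromosome 1, 165788681 to 165877277, mm10), the zeta chain that starts T cell receptor signalling, was 11.80 in B1, 9.84 in C1, 10.95 in E2 and 10.50 in B3, against 7.86 to 9.37 (median 8.85) in the shown samples. The groups did not overlap, C1 was closest to the shown samples, and the difference was 2.07 ± 0.37 (adjusted p = 0.00176). Lat, the adaptor that couples the receptor to downstream kinases, was 11.22 in B1, 9.12 in C1, 10.43 in E2 and 9.96 in B3, against 7.24 to 8.94 (median 8.35), a difference of 1.98 ± 0.39 (adjusted p = 0.00273). Cd28, the costimulatory receptor, ran from 10.29 to 11.83 in the absent and from 8.14 to 10.07 in the shown samples (1.98 ± 0.35, adjusted p = 0.00168). For 13 of the 20 genes every absent sample exceeded every shown sample.

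Of the coreceptors that mark helper and cytotoxic T cells, Cd4 separated C1 from the other absent samples and Cd8a did not. Cd4 was 12.22 in B1, 11.51 in E2 and 11.14 in B3, but 9.83 in C1, level with the highest shown sample (shown 8.46 to 9.83, median 9.33). Cd8a was highest in C1 at 10.79, with 10.68 in E2, 10.20 in B1 and 9.93 in B3, and 8.49 to 10.15 (median 9.11) in the shown samples. The difference of C1 from the other 3 was -1.90 ± 0.56 for Cd4 (adjusted p = 0.0343) and 0.87 ± 0.50 for Cd8a (adjusted p = 0.241).

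Of 12 genes of naive lymphocytes and lymph node homing, 11 were higher in the absent samples (median 1.63) and Igfbp4 was not (-0.26 ± 0.12, adjusted p = 0.118). Lef1, a transcription factor of naive and early memory T cells, was 11.87 in B1, 10.96 in E2 and 10.47 in B3, but 8.49 in C1, inside the shown range of 6.59 to 9.06 (median 7.63). Ccr7, the chemokine receptor for entry into lymph nodes, was 14.65 in B1, 14.05 in E2 and 13.72 in B3, and 11.71 in C1, again inside the shown range of 10.88 to 12.45 (median 11.48). Klf2, a transcription factor of quiescent lymphocytes, was 10.66 in B1, 10.89 in E2, 10.60 in B3 and 10.57 in C1, above the shown range of 9.23 to 10.14 in all 4 (0.85 ± 0.13, adjusted p = 0.00112). C1 therefore shared the higher Klf2, but not the higher Ccr7 and Lef1.

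B cell genes were higher in B1, E2 and B3 and at shown levels in C1. Over the 4 absent samples, 19 of 20 B cell genes were higher (median 2.10), yet for none of the 20 did all 4 exceed every shown sample. Cd79a (chromosome 7, 24897381 to 24902197, mm10), a signalling chain of the B cell receptor, was 11.77 in B1, 12.18 in E2 and 11.75 in B3, and 8.67 in C1, against 7.32 to 10.45 (median 8.47) in the shown samples. The shown samples themselves spread widely, with A1 at 7.32 and the untreated D1 and E1 at 10.10 and 10.45. Ms4a1, which encodes CD20, was 11.08 in B1, 11.16 in E2 and 10.95 in B3, and 7.89 in C1, against 6.45 to 9.22 (median 7.68). The count of B cell genes past the test was 9 without B1, 5 without E2 and 8 without B3, with medians of 1.85, 1.79 and 1.95, beside 16.3%, 10.8% and 14.0% of all genes higher in these fits.

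**Figure D2:**
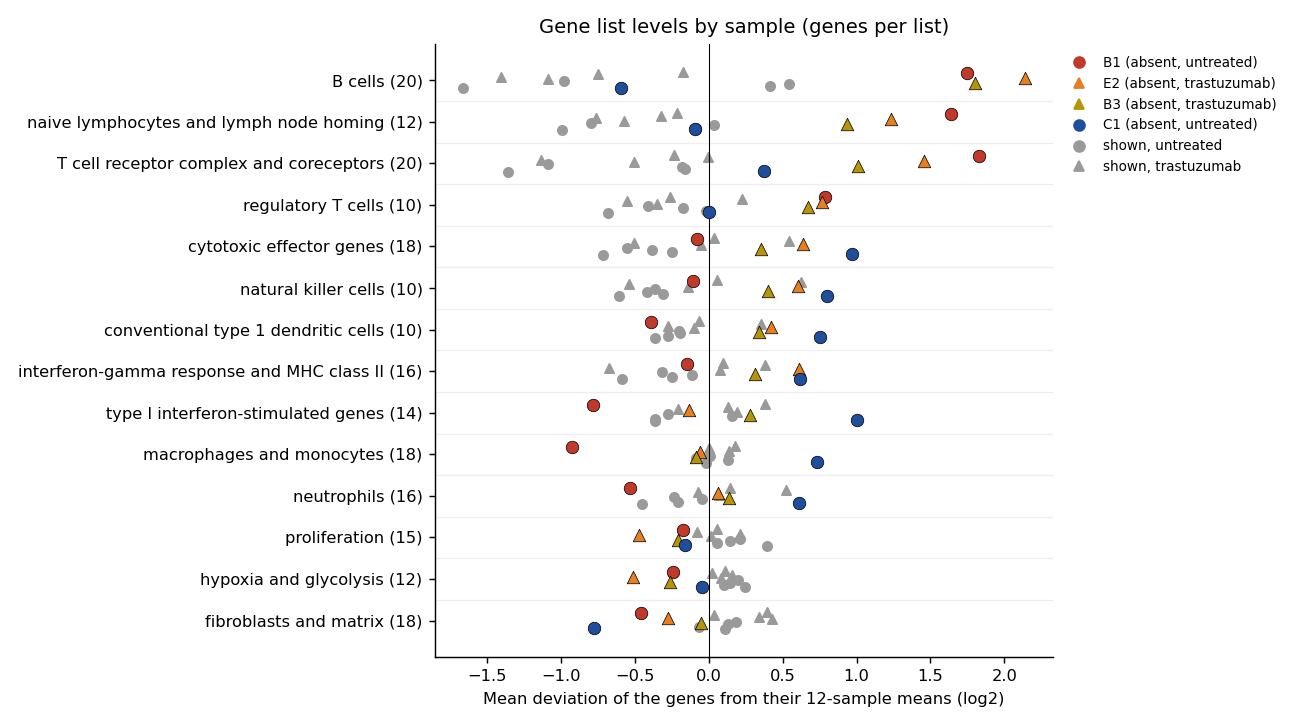
Mean deviation of each gene list from its genes' 12-sample means (log2, x axis) for each of the 12 samples, with the number of genes in each list in brackets; coloured markers are absent and grey markers shown samples, circles untreated and triangles trastuzumab. For B cells B1, E2 and B3 lie between 1.75 and 2.14 and C1 at -0.59, while for type I interferon-stimulated genes C1 lies at 1.00 and the shown samples between -0.37 and 0.38.

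Other lymphocyte lists, dendritic cell lists and the interferon-gamma and MHC class II list moved in part. Of 10 genes of regulatory T cells, 8 were higher in the absent samples (median 0.90), among them Ctla4, an inhibitory receptor, at 11.29 in B1, 10.46 in C1, 10.58 in E2 and 10.50 in B3 against 8.76 to 9.92 (median 9.17) in the shown samples (1.46 ± 0.22, adjusted p = 0.00112). Foxp3, the transcription factor that defines these cells, was 9.07 in B1, 9.23 in E2 and 9.19 in B3 but 7.78 in C1, at the shown median of 7.78 (shown 7.02 to 8.44). Of 18 cytotoxic effector genes, 10 were higher (median 0.76) and of 10 natural killer genes 4 (median 0.55), beside 17.9% of all genes higher. Of 10 genes of conventional type 1 dendritic cells 3 were higher (median 0.49) and of 10 plasmacytoid dendritic cell genes 5 (median 0.66). No member of these 4 lists was lower past the test. Of 16 genes of the interferon-gamma response and MHC class II, 9 were higher (median 0.60), including Ciita, the master regulator of MHC class II, at 1.01 ± 0.29 (adjusted p = 0.02). Single samples decided several of these counts. Without C1, 7 cytotoxic genes were higher and 1 lower (median 0.44), 2 natural killer genes were higher (median 0.32), 3 type 1 dendritic cell genes were higher and 1 lower (median 0.28), 3 plasmacytoid dendritic cell genes were higher and 1 lower (median 0.46), and 6 genes of the interferon-gamma and MHC class II list were higher (median 0.43), beside 22.6% of all genes higher. Without E2, where the share of all genes higher also fell, to 10.8%, 4 regulatory T cell, 6 cytotoxic, 2 natural killer, 2 type 1 dendritic cell and 3 plasmacytoid dendritic cell genes and 2 genes of the interferon-gamma and MHC class II list were higher. Without B1 (16.3% of all genes higher), 5 regulatory T cell, 14 cytotoxic, 6 natural killer and 6 type 1 dendritic cell genes were higher, and without B3 (14.0%) 5 regulatory T cell and 3 plasmacytoid dendritic cell genes.

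Plasma cell genes were split. Jchain, which joins polymeric immunoglobulin, was 12.81 in B1, 12.35 in E2, 10.26 in B3 and 9.28 in C1, against 7.91 to 10.92 (median 8.96) in the shown samples, where E1 was highest (2.04 ± 0.66, adjusted p = 0.031). Sdc1, which encodes CD138 of plasma cells and of epithelium, was lower in all 4 absent samples, at 11.80 to 12.27 against 12.46 to 13.00 (-0.65 ± 0.11, adjusted p = 0.00161). In all, 6 of 11 plasma cell genes were higher and 3 lower, beside 17.9% and 14.2% of all genes. Without B1 or without E2, 2 were higher, beside 16.3% and 10.8% of all genes.

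Antigen receptor genes, a grouping added after values had been seen, followed the B and T cell genes. Reads of V genes and of the immunoglobulin constant genes can be shared between near-identical copies, so their values are uncertain gene by gene. V gene values were also low. Class means per sample ran from 3.10 to 5.08 for heavy chain V genes and from 2.56 to 3.66 for alpha and delta V genes, beside a median gene mean of 8.80. Of 75 immunoglobulin heavy chain V genes, 70 were higher in B1, E2 and B3 than in the shown samples, of 84 light chain V genes 77, of 38 T cell receptor alpha and delta V genes 36 and of 17 beta V genes 16, beside 22.6% of all genes higher in that comparison. Ighd, the constant gene of IgD on naive B cells, was 12.06 in B1, 12.12 in E2 and 11.54 in B3, and 8.78 in C1, against 7.29 to 10.20 (median 8.38). Ighg2b, a class-switched constant gene, was 12.39 in B1, 11.16 in E2 and 10.17 in B3, and 8.42 in C1, against 6.71 to 10.04 (median 7.79). For Ighg1 the groups overlapped, with 13.49 in B1, 14.84 in E2 and 12.13 in B3 against 9.03 to 13.02, the highest of which was E1.

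Single T cell receptor V genes had their highest value in C1. Trbv16 (chromosome 6, 41151740 to 41152230, mm10) was 8.31 in C1, 5.45 in B1, 5.76 in E2 and 5.02 in B3, against 3.66 to 5.05 in the shown samples, and C1 exceeded the shown samples by 4.21 ± 0.42 (adjusted p = 0.00249). Trav14d-3-dv8, an alpha chain V gene, was 6.93 in C1, 6.11 in B1, 5.21 in E2 and 4.93 in B3, against 3.60 to 4.52, a difference of C1 from the shown samples of 2.83 ± 0.34 (adjusted p = 0.00278). Of the 17 beta V genes, 2 were higher in C1 than in the shown samples (Trbv16 and Trbv15), and of the 38 alpha and delta V genes 2 (Trav14d-3-dv8 and Trav6d-4), beside 8.20% of all genes, so that the counts of these classes lay near that share. Trgv2, the one gamma chain V gene with values, was likewise highest in C1, at 3.48 against 2.85 in B1, 3.01 in E2, 2.91 in B3 and 2.55 to 2.99 in the shown samples, all far below the median gene mean of 8.80. These genes were singled out after their values were seen.

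**Figure D3:**
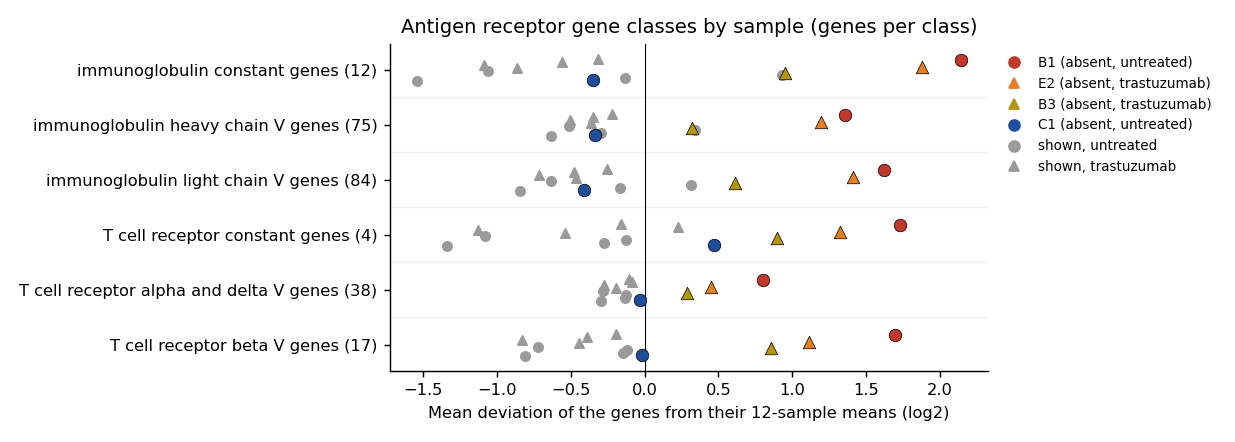
Mean deviation of the 6 antigen receptor gene classes of more than 1 gene from their genes' 12-sample means (log2, x axis) in each of the 12 samples; coloured markers are absent and grey markers shown samples, circles untreated and triangles trastuzumab. In each of these 6 classes B1 is highest, and C1 lies at -0.35 for immunoglobulin constant genes and at 0.47 for T cell receptor constant genes.

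Genes of the matrix were lower in the absent samples, in C1 as in the other 3. Of 18 fibroblast and matrix genes, 12 were lower (median -0.82), beside 14.2% of all genes. In all 4 absent samples 10 of these lay below every shown sample, beside 7.57% of all genes. Col12a1, a fibril-associated collagen (chromosome 9, 79598991 to 79718831, mm10), was 12.99 in B1, 12.26 in C1, 12.35 in E2 and 12.89 in B3, against 13.50 to 14.14 (median 13.86), a difference of -1.20 ± 0.16 (adjusted p = 0.00102). Fn1, which encodes fibronectin, was 15.62 in B1, 15.29 in C1, 15.41 in E2 and 15.74 in B3, against 16.20 to 17.07 (median 16.53), a difference of -1.07 ± 0.16 (adjusted p = 0.00111). Dcn, Lum, Postn and Fap, also products of fibroblasts, differed by -0.09, 0.26, 0.07 and 0.07 without passing the test, and Tagln, of smooth muscle and myofibroblasts, was higher (0.48 ± 0.15, adjusted p = 0.0228).

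Secreted and signalling genes held most other places among the largest decreases. Mmp10, a matrix metalloproteinase, was 8.96 in B1, 7.90 in C1, 8.14 in E2 and 8.94 in B3, against 9.41 to 10.34 (median 9.89), the largest decrease named in this comparison (-1.38 ± 0.23, adjusted p = 0.00142). Il11, a cytokine of the IL-6 family, was 10.13 in B1, 9.05 in C1, 10.04 in E2 and 10.55 in B3, against 10.71 to 11.46 (median 11.22). Lif, another cytokine of that family, Has2, a hyaluronan synthase, the transcription factor Sox9, the Wnt ligand Wnt7b and the alarmin Il33 were lower by the same pattern, with differences between -1.31 (Sox9) and -1.12 (Il33). Mouse Erbb2, the endogenous counterpart of the introduced human gene, was 8.88 in B1, 8.22 in C1, 8.89 in E2 and 9.09 in B3, below all shown samples (9.23 to 9.96, median 9.60, difference -0.82 ± 0.14, adjusted p = 0.00149). Reads of the human transgene could in part align to it, which was not tested.

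Epithelial genes did not move together. Krt8, Elf3 and Wnt7b were lower in the absent samples, whereas Epcam, Cldn7, Cldn4 and Krt19 were higher, and 5 of 12 did not pass the test. Epcam, an adhesion molecule of epithelium and of some leukocytes, was 7.95 in B1, 7.44 in C1, 8.16 in E2 and 7.86 in B3, against 6.34 to 7.27 (median 7.07), a difference of 0.96 ± 0.20 (adjusted p = 0.00406). Of 12 endothelial genes only Pecam1, which leukocytes also carry, passed the test (0.75 ± 0.12, adjusted p = 0.00122). Without B1, 7 did, beside 16.3% of all genes higher in that fit.

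Genes of proliferation and of hypoxia were lower by smaller amounts. Their counts stand beside 14.2% of all genes lower. Of 15 proliferation genes 13 were lower (median -0.40), for example Bub1, a mitotic checkpoint kinase, at 10.50 in B1, 10.42 in C1, 9.93 in E2 and 10.41 in B3 against 10.65 to 11.39 (median 10.82, difference -0.56 ± 0.13, adjusted p = 0.007). Mki67, the most used proliferation marker, differed by -0.20 ± 0.12 (adjusted p = 0.243). Of 12 genes of hypoxia and glycolysis 10 were lower (median -0.40), among them Car9, a carbonic anhydrase induced by low oxygen, at 9.67 in B1, 9.78 in C1, 9.44 in E2 and 10.01 in B3 against 10.09 to 10.71 (median 10.36, difference -0.67 ± 0.12, adjusted p = 0.00191). Without E2, 9 of the 15 proliferation genes (median -0.35) and 8 of the 12 hypoxia and glycolysis genes (median -0.37) were lower. The share of all genes lower in that fit was 9.11%. Mitochondrially encoded genes, 7 of which had values, had a median of 0.06 and a lowest adjusted p of 0.462 over all 12 samples.

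Macrophage, neutrophil and type I interferon genes showed little difference over the 4 absent samples, but the single samples lay far apart. Of 18 macrophage genes only Spp1, which encodes osteopontin, passed the test (-0.82 ± 0.16, adjusted p = 0.00301), while the lowest adjusted p was 0.125 among 16 neutrophil genes and 0.417 among 14 type I interferon-stimulated genes. The macrophage list lay at -0.93 in B1 and at 0.73 in C1, with E2 and B3 at -0.06 and -0.09, inside the shown range of -0.09 to 0.18. The median difference of macrophage genes was -0.39 without C1, with 9 of 18 lower beside 17.7% of all genes, and 0.25 without B1. That of type I interferon-stimulated genes was 0.13 over all 12 samples, -0.23 without C1 and 0.39 without B1.

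The remaining lists are small, and their counts stand beside 17.9% of all genes higher and 14.2% lower. The shares of mature dendritic cell genes lower (16.7%) and of skeletal muscle genes higher (33.3%) were not below those of all genes. Of 12 genes of mature dendritic cells 2 were lower in the absent samples (median -0.13), with Fscn1, an actin bundler of migrating dendritic cells, at -0.68. Of 11 genes of mast cells, basophils and eosinophils 1 was higher and 1 lower (median 0.25), of 8 adipocyte genes likewise (median 0.11), and of 6 skeletal muscle genes 2 were higher (median 0.16). Of 12 immediate early genes, which respond to stress and to tissue dissociation, Ier2 was higher (0.56, adjusted p = 0.0102) and Fosb lower (-0.44 ± 0.11, adjusted p = 0.00795), with a median of 0.17. The 5 red blood cell genes had a median of -0.24 and a lowest adjusted p of 0.162.

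B1, E2 and B3 without C1 differed from the shown samples in 723 genes that were higher (4.25%) and 15 that were lower (0.0883%) at an adjusted p below 0.01 and a fold above 2, and in 3841 (22.6%) and 3014 (17.7%) at an adjusted p below 0.05. They lay above all 8 shown samples for 2832 genes (16.7%) and below for 2031 (11.9%). All 20 T cell receptor genes (median 2.01), 11 of 12 naive lymphocyte genes (median 2.11) and 19 of 20 B cell genes (median 2.85) were higher, and 19 of the 20 B cell genes lay above every shown sample in all 3. The exception, Cd72, is carried by B cells and by macrophages, and was 12.35 in B1 and 13.09 in E2 and in B3, against 12.77 to 13.16 in the shown samples. Other genes with wide separation were Cxcr5, the receptor that guides B cells to follicles (11.30 in B1, 11.62 in E2 and 10.99 in B3 against 7.04 to 10.05), and Rasgrp2, a lymphocyte exchange factor (11.31 in B1, 10.86 in E2 and 10.47 in B3 against 7.53 to 9.21). S1pr1, the receptor for exit from lymph nodes, was 13.15 in B1, 12.45 in E2 and 12.21 in B3, and 10.82 in C1, against 10.09 to 10.99 (2.24 ± 0.21, adjusted p = 3.27e-05).

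Genes of lymph node stroma gave no common direction. Glycam1, a mucin made by high endothelial venules and by mammary epithelium, was 8.38 in E2 and 8.25 in B3, 6.21 in B1 and 4.83 in C1, against 4.19 to 6.02 (median 4.45). Of 8 list members with values, Glycam1 and Tnfsf11 were higher in the 4 absent samples and Il33 was lower. Cxcl13, Lyve1, Prox1, Bst1 and Ltbr did not pass the test, and the defining stromal chemokines Ccl21a and Ccl19 were not analysed here. What these values contribute to the lymphocyte differences was not tested.

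**Figure D4:**
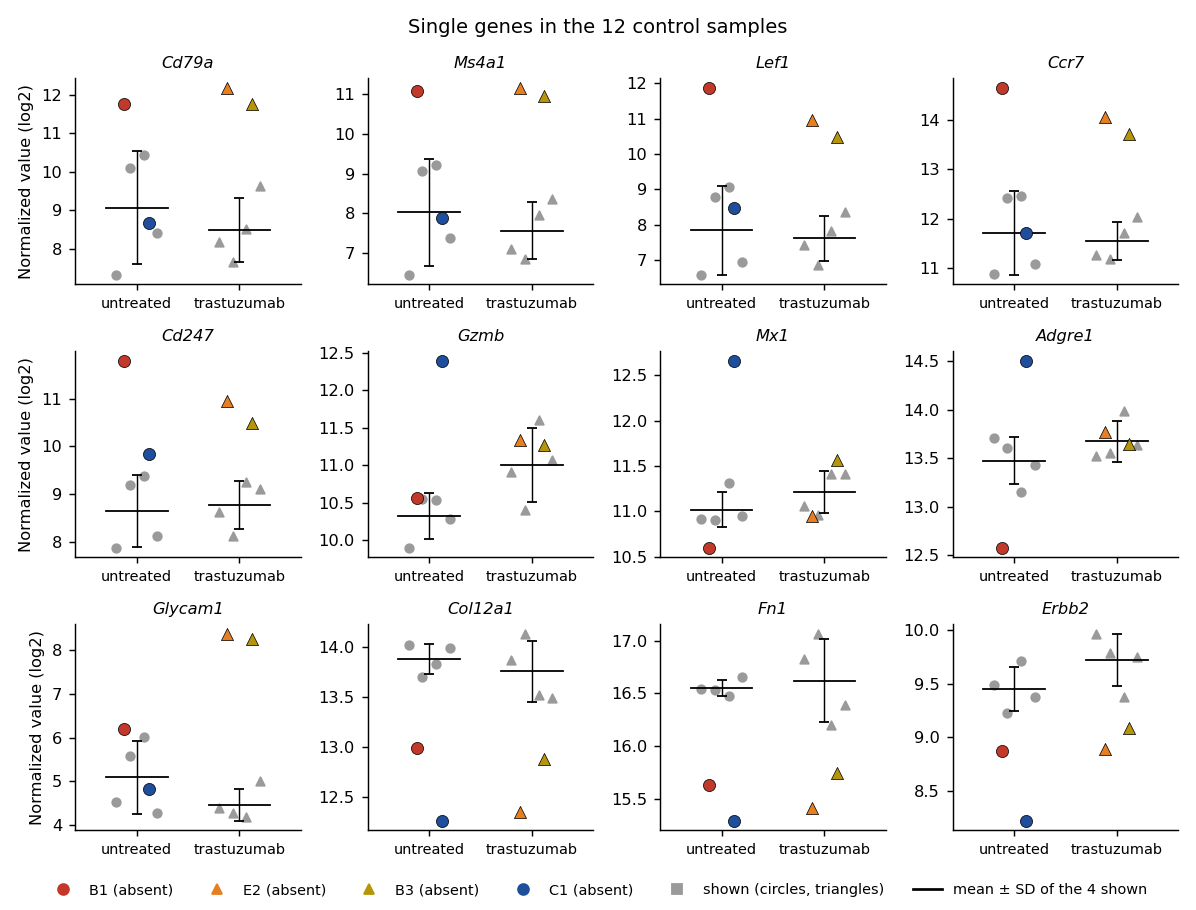
Normalized values (log2, y axis) of 12 genes in each untreated and trastuzumab sample; coloured markers are the absent samples, grey circles and triangles the shown samples, and the line and bar the mean and SD of the 4 shown samples of a treatment. Cd79a lies between 11.75 and 12.18 in B1, E2 and B3 and at 8.67 in C1, Mx1 is highest in C1 at 12.66, and Col12a1 and Fn1 lie below the shown samples in all 4.

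C1 against the other 3 absent samples gave 230 genes that were higher (1.35%) and 224 that were lower (1.32%) at an adjusted p below 0.01 and a fold above 2, and 1438 (8.46%) and 1609 (9.47%) at an adjusted p below 0.05. As C1 is a single sample, its spread is taken from the other samples and assumed to be like theirs. The counts depended on B1, the other untreated sample of the 4, since few genes passed the stricter threshold without it. Without B1, C1 is set against trastuzumab samples only, through the treatment term. A contribution of B1 to the differences and a loss of precision therefore cannot be told apart. C1 had the highest value of the 12 samples for 3020 genes (17.8%) and the lowest for 2511 (14.8%), against 435 to 4029 and 341 to 3162 for the other 11 samples, with the most in B1.

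All 14 type I interferon-stimulated genes were highest in C1 of the 12 samples. All 14 passed the test against the other 3 absent samples (median 1.47) and against the 8 shown samples (median 1.24), and without B1 7 of the 14 passed against E2 and B3 (median 1.25, beside 2.19% of all genes higher) and 14 against the shown samples (median 1.16, beside 9.23%). Mx1 was 12.66 in C1, 10.60 in B1, 10.95 in E2 and 11.57 in B3, against 10.90 to 11.41 (median 11.01), so that C1 exceeded the shown samples by 1.70 ± 0.25 (adjusted p = 0.00287). Rsad2, which encodes the antiviral enzyme viperin, was 15.28 in C1, 13.31 in B1, 13.88 in E2 and 14.50 in B3, against 13.84 to 14.55 (median 14.25). Isg15, a ubiquitin-like modifier, was 14.05 in C1, 12.58 in B1, 13.10 in E2 and 13.49 in B3, against 12.77 to 13.74 (median 13.13). Ifit3, which shares near-identical stretches with Ifit3b so that reads may be split between them, was 12.69 in C1 against 10.71 to 11.73 in the other 3 and 10.95 to 11.85 in the shown samples.

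Genes of this group are transcribed through a promoter element bound by the factor complex ISGF3. The motif GAAA, any 2 bases and GAAA again, a core of that element searched on both strands with overlaps counted, lay in the 250 bases before the start of 5 of 11 list genes that matched a RefSeq promoter (45.5%, namely Ifit1, Ifit3, Isg15, Oas3 and Rsad2), beside 978 of all 32851 promoters (2.98%). Of 11 matched genes of the interferon-gamma and MHC class II list, 4 held it (36.4%). A match is a description of the letters and not a site. The other matched list genes, Cmpk2, Ifi44, Ifit2, Irf7, Oasl1 and Oasl2, held no match. A list gene was counted once, whereas the share of all promoters counted each promoter. The promoters of 3 of the 5 genes with a match are shown as examples from the list that set C1 apart. They are RefSeq sequence of GRCm38.p6, read from 5′ to 3′ on the strand of the gene, with the matches in capitals. Ifit3 lies on the plus strand (chr19:34583279-34583528, 2 matches), Isg15 on the minus strand (chr4:156200819-156201068, 3 overlapping matches) and Rsad2 on the minus strand (chr12:26456453-26456702, 1 match).
Ifit3: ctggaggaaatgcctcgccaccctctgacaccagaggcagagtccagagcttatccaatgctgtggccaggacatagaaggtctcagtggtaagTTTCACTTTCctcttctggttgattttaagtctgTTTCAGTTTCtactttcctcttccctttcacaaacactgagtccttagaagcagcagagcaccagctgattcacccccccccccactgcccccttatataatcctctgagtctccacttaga
Isg15: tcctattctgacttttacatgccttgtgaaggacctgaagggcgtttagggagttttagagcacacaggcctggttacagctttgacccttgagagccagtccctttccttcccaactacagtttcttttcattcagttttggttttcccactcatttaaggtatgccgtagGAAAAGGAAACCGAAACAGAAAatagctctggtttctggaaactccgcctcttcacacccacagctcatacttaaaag
Rsad2: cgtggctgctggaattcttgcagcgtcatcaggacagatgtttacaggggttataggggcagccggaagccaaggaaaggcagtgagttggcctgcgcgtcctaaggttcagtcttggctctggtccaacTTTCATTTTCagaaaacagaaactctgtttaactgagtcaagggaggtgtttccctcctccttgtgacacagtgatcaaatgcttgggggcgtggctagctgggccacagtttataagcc

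C1 also had the highest value of the 12 samples for 16 of 18 macrophage genes, 10 of 16 neutrophil genes and 12 of 18 cytotoxic genes. Over all genes, C1 was highest for 17.8%. Against the other 3 absent samples 16 of 18 macrophage genes were higher (median 1.28), beside 8.46% of all genes. Against the shown samples 9 were higher (median 0.88), beside 8.20% of all genes. Adgre1, which encodes the macrophage marker F4/80, was 14.51 in C1, 12.58 in B1, 13.77 in E2 and 13.65 in B3, against 13.15 to 13.99 (median 13.58). Among the genes with the largest differences, Slc40a1, the iron exporter ferroportin, was 10.69 in C1, 8.14 in B1, 7.91 in E2 and 9.14 in B3, against 8.67 to 9.77. Ccl8, a monocyte chemokine, was 14.74 in C1, 12.17 in B1, 14.00 in E2 and 13.61 in B3, against 12.74 to 14.32. Without B1, the median difference of the macrophage genes in C1 from E2 and B3 was 0.84.

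The immediate early gene Atf3, a stress-induced transcription factor, was 15.00 in C1, 13.56 in B1, 13.75 in E2 and 13.93 in B3, against 13.62 to 14.12 in the shown samples. Of the 12 genes of its list, 3 were higher in C1 than in the shown samples, beside 8.20% of all genes. Whether handling contributed to the values of C1 was not tested.

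Of 16 neutrophil genes 10 were higher in C1 than in the shown samples (median 0.88), among them Cxcr2, the chemokine receptor of neutrophils, at 11.32 against 9.39 to 10.96. Of 18 cytotoxic effector genes 14 were higher (median 1.41) and of 10 natural killer genes 8 (median 1.26). The counts in this paragraph stand beside 8.20% of all genes higher in C1 than in the shown samples. Gzmb, which encodes the effector protease granzyme B, was 12.39 in C1, 10.57 in B1, 11.33 in E2 and 11.27 in B3, against 9.90 to 11.61 (median 10.55), so that C1 exceeded the shown samples by 2.08 ± 0.32 (adjusted p = 0.00288). Ifng, which encodes interferon gamma, was 8.40 in C1, 7.40 in B1, 7.64 in E2 and 7.04 in B3, against 5.81 to 7.70 (median 5.98). For Ifng, C1 lay outside the shown range and the other 3 within it. Xcr1, a receptor of conventional type 1 dendritic cells, was 8.56 in C1, 6.72 in B1, 8.02 in E2 and 8.08 in B3, against 6.53 to 8.37, and 8 of the 10 genes of these cells were higher in C1 than in the shown samples (median 0.98).

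Against the shown samples alone, C1 had 149 genes that were higher (0.877%) and 359 that were lower (2.11%) at an adjusted p below 0.01 and a fold above 2, and 1394 (8.20%) and 1410 (8.30%) at an adjusted p below 0.05. The matrix list was lower, with 12 of 18 genes (median -1.14), Krt8 was 12.24 against 13.06 to 13.47, and Wnt7b was 7.83 against 9.41 to 10.31. Of 20 T cell receptor genes 3 were higher (median 0.93), of 12 naive lymphocyte genes 2 (median 0.19), and of 20 B cell genes Cd72 alone (median -0.15).

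Counted by sign alone, 19 of 20 B cell genes were lower in C1 than in the other 3 absent samples (median -2.96). Of 12 naive lymphocyte genes 10 were lower (median -1.92), beside 9473 of all 16996 genes (median -0.06). The largest decrease over all genes, -3.75, was that of a B cell gene. C1 was the lowest of the 12 samples for 1 of these B cell genes and 0 of these naive lymphocyte genes. Among genes for which C1 lay below all 11 other samples, the largest decreases were not marker genes. Scd1, a fatty acid desaturase, was 11.17 in C1, 13.46 in B1, 13.41 in E2 and 12.99 in B3, against 12.09 to 12.65 in the shown samples (-2.26 ± 0.19, adjusted p = 0.000494). Its values thus lay on both sides of the shown samples, B1, E2 and B3 above them by 1.00 ± 0.11 (adjusted p = 4.49e-05) and C1 below them with log2 difference -1.26 ± 0.17 (adjusted p = 0.00287). Zhx2, a transcriptional repressor, was 9.36 in C1, 11.50 in B1, 11.63 in E2 and 11.37 in B3, against 9.61 to 10.25. Patj, a tight junction scaffold, was 9.32 in C1, 11.40 in B1, 10.71 in E2 and 10.52 in B3, against 9.80 to 10.29.

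Within each treatment, the 2 absent samples differed from the 4 shown ones in partly the same way. The differences of the untreated and of the trastuzumab samples, which share no sample, correlated across the 16996 genes with a Pearson r of 0.81 and had the same sign for 77.5% of them. Genes are not independent replicates, and the value describes these 12 samples. For B1 alone against the untreated shown samples the r with the trastuzumab difference was 0.78, and for C1 alone 0.42. Among the trastuzumab samples 568 genes were higher (3.34%) and 44 lower (0.259%) at an adjusted p below 0.01 and a fold above 2, whereas among the untreated samples limma called 0, also at an adjusted p below 0.05, with 3401 at an unadjusted p below 0.05.

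The median difference of B cell genes was 1.11 in the untreated and 3.08 in the trastuzumab samples, while that of T cell receptor genes was 1.79 and 1.69 and that of matrix genes -0.99 and -0.65. The B cell value of the untreated samples joins 2 unlike samples, with a median difference from the untreated shown samples of 2.44 in B1 and -0.24 in C1, against 3.22 in E2 and 2.96 in B3 from the trastuzumab shown samples. A test of the difference between the treatments gave 0 genes at an adjusted p below 0.01, 519 at an unadjusted p below 0.05 and 1 at an adjusted p below 0.05 (0.00588% of genes). That gene, Csn1s1, encodes a milk casein and was 3.07 in E2 and 2.78 in B3, against 1.52 to 1.83 in the other 10 samples, with a difference between treatments of -1.34 ± 0.14 (adjusted p = 0.0129). All these values were low, beside a lowest value of 1.14 in the 12 samples and a median gene mean of 8.80.

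**Figure D5:**
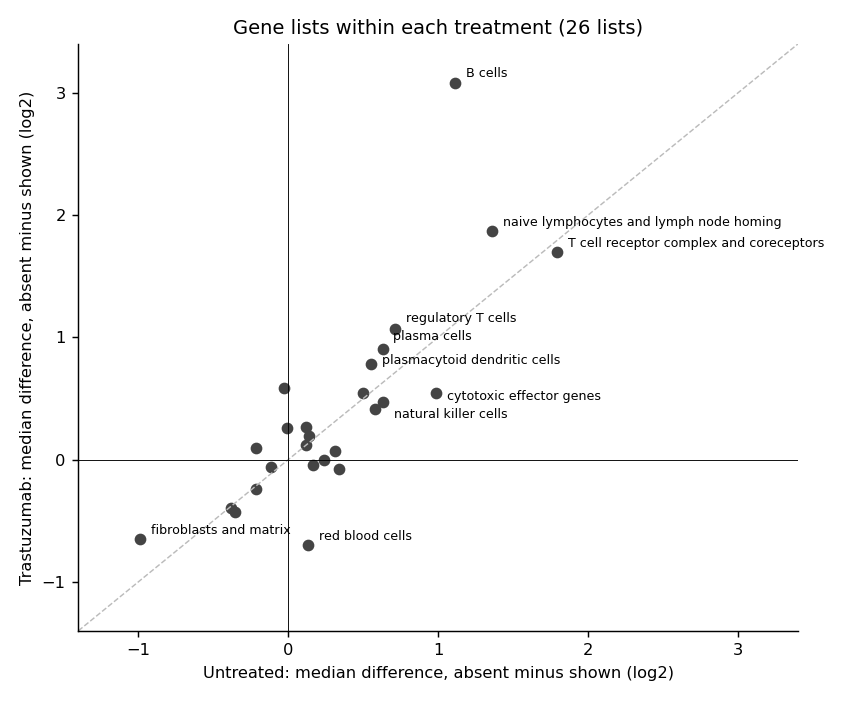
Median log2 difference between absent and shown samples of each of 26 gene lists in the untreated (x axis) and the trastuzumab (y axis) samples, 2 absent against 4 shown in each; the dashed line marks equal values. B cells lie at 1.11 and 3.08, and fibroblasts and matrix at -0.99 and -0.65.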

How the data were processed

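RNA from CD45+ tumor cells was sequenced in 24 samples, of which 12 were used, 1 per mouse. The authors aligned reads with STAR 2.4.2a to mm10, counted them by strand with featureCounts (Subread 1.5.0), removed genes averaging under 5 counts and used DESeq2 for their comparisons. The deposited log2 values had been normalized for library size by the authors, with a transformation the sources used here do not name; read counts were not recovered from them, so depth is unknown. As the values are not counts, limma 3.58.1 (R 4.3.3; lmFit, contrasts.fit, eBayes with a mean trend) was fitted to all 16996 genes with treatment as a term. Calls over all genes used an adjusted p below 0.01 and a fold above 2, and single genes an adjusted p below 0.05. Gene positions came from GENCODE M21, which held 99.6% of the identifiers, and plots from Python 3.11.15 with matplotlib 3.10.9. On simulated data, 200 genes shifted by a log2 value of 2 were recovered at 98.5% for absent against shown and at 90.0% for C1 against the other 3.

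The members and the 26 gene lists were chosen with earlier results of these data known, and the antigen receptor classes after values were seen. Of 348 list members 323 had values, and the rest are not analysed here. Named genes were the 10 largest differences each way in 3 comparisons, among genes with a symbol, an above-median mean and groups that did not overlap, then the highest and lowest member of each list, and 21 preset markers, of which 2 are not reported here. Such genes had to separate the groups. Other genes named from the lists illustrate them. Nothing in the labels says that samples were handled apart from the mice, and p-values measure the spread between these mice. Alternatives were quantile normalization, a filter on low values, a common fit of all 24 samples, each treatment alone, and leaving out each sample.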

Additional observations from a re-analysis of the deposited data

Results flagged for a closer look

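Within groups of 4 to 8 samples, 26 single gene values and 9 list values lay far from the rest of their group by the gap to the nearest sample as a share of the group's range. Chance flags about 1 in 20 groups where values are not selected, and 111 genes and 26 lists were looked at in each of 4 groups. Many of these genes were named for their extreme values in these same samples. That rate is therefore no measure for their counts, which only describe the samples. Of 111 genes, 11 were marked among the 4 absent samples, 6 among the 8 shown, 7 among the 6 untreated and 2 among the 6 trastuzumab samples, and the groups share samples.

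C1 was the lowest absent sample for the B cell genes Cd79a (0.878), Cd79b (0.908), Ms4a1 (0.936) and H2-Ob (0.852), and for Zhx2 (0.884), which is on no list. C1 was also lowest for the B cell list (0.857), the regulatory T cell list (0.858) and the skeletal muscle list (0.941). A gap share does not give the size of a gap. The skeletal muscle list lay at 0.071 in C1 and at 0.123 to 0.127 in B1, E2 and B3. The B cell list lay at -0.59 in C1 and at 1.75 to 2.14 in B1, E2 and B3. C1 was the highest untreated sample for Ifit3b (0.635) and Mx1 (0.655), for the natural killer list (0.643) and for the list of conventional type 1 dendritic cells (0.827).

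B1 was the highest untreated sample for Grap2 (0.654), Rras2 (0.677), Arhgef18 (0.679) and Cd4 (0.635), and the lowest for Runx2 (0.756). Among the absent samples B1 was lowest for Runx2 (0.88), Flt3 (0.854) and Gbp2 (0.915), and highest for Ctla4 (0.857) and the mitochondrial gene ND2 (0.852). E2 was the lowest absent sample for Bub1 (0.854) and for the proliferation list (0.835).

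Among the shown samples, A1 was lowest for Lipe (0.624) and for the immediate early list (0.53) and highest for Bub1 (0.556), and E1 was lowest for Cd72 (0.543). H2 was highest for Atp2a1 (0.563), Ptprc (0.529) and the list of conventional type 1 dendritic cells (0.59), and F1 for Egln3 (0.554). Among the trastuzumab samples G2 was lowest for Gbp2 (0.748), A3 lowest for Xist (0.724) and H2 highest for the neutrophil list (0.641).

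The difference between absent and shown samples differed between the treatments for 1 gene, Csn1s1, by -1.3417 (untreated minus trastuzumab, limma, adjusted p = 0.0129), with E2 at 3.07 and B3 at 2.78 and the other 10 samples at 1.52 to 1.83. All these values lay far below the median gene mean of 8.80.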

How the results depend on the processing

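No paired analysis was possible because the labels give well codes and no replicate numbers shared between groups. Depth could not be assessed from normalized values. The counts of genes at an adjusted p below 0.01 and a fold above 2 depended on single samples and on the fit. For absent against shown, 428 genes became 170 among genes with a mean above the median, 214 in a fit of all 24 samples, 0 among the untreated samples alone and 5459 at an adjusted p below 0.05 with no limit on the fold, and ran from 109 (without E2) to 738 (without C1) with samples left out, with 276 without B1 and 284 without G2. For B1, E2 and B3 against shown, 738 became 226 among genes with a mean above the median and 6855 at an adjusted p below 0.05, and ran from 592 to 879, of which 2 (without E2) to 45 (without B1) were lower, against 15 over all samples, with 8 without G2, 26 without H2 and 24 without B3. For C1 against the other 3, 454 became 194 in the fit of all 24 samples, of which 186 were higher and 8 lower, and 3047 at an adjusted p below 0.05, and ran from 10 (without B1) to 693 (without B3), with 140 without A3, 271 without D1 and 267 without F1. For C1 against shown, with alternatives chosen after seeing the data, 508 became 171 (125 higher and 46 lower) and 2804, and ran from 302 (without F1) to 574. The test of the difference between treatments gave 1 gene at an adjusted p below 0.05 and 1 in the fit of all 24 samples, and from 0 to 10 (without B1) with samples left out, with 3 without C1. Other causes of these shifts than the samples or genes removed were not tested.

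The split took 42.2% of the squared distance over all genes, and from 44.2% (without E2) to 67.5% (without C1) with samples left out. Of 26 lists, 10 had a median beyond 0.5 in size, and from 6 (without C1) to 11 with samples left out. The median of the epithelial list, 0.16 over all samples, ran from -0.0027 (without E2) to 0.23. Quantile normalization moved the median of all genes in absent against shown to -0.041 and gave 403 genes, 337 higher and 66 lower. Over the single named genes, a call was lost 25 times, 24 of them with a sample left out, and gained 12 times, and no called gene changed direction under these settings.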

Other observations

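Genes of milk were looked at after the value of Csn1s1 had been seen. Csn3, which encodes kappa-casein, had a mean of 5.98 in the absent and 5.28 in the shown samples, a log2 difference of 0.70 (limma, adjusted p = 0.00452), and Lalba, which encodes alpha-lactalbumin, differed by 0.06 (adjusted p = 0.525). Glycam1, a product of mammary epithelium as well as of lymph node vessels, was higher by 2.14 ± 0.58 (adjusted p = 0.0138).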
